A study of Rattus norvegicus with 12 samples.

Results

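Genes that mark the ductal epithelium of the pancreas were followed in RNA sequencing of isolated rat islets. The set holds 9 genes, Krt19, Krt8, Krt18, Krt7, Sox9, Spp1, Car2, Cftr and Epcam, found by gene symbol in a table of 17407 genes. A row was found for 8 of the 9; Krt7 matched no row and was not analysed here. All 8 passed the filter on low values (a mean scaled value of at least 1) and were among the 12339 genes tested. The islets came from Sprague-Dawley rats of 15 weeks of age, and the question of the study was what a dam's gestational diabetes mellitus (GDM) does to the islets of its offspring. Dams, 6 per diet, were fed for 6 weeks before mating and on through pregnancy and suckling: GDM was induced with high-fat, high-sucrose food (HFS, 45% fat), while lean dams ate low-fat food (LF, 10% fat). All sires ate LF diet, all litters were cut to the same size, and pups were weaned onto HFS or LF diet for 12 weeks. This gave GDM-HFS, GDM-LF, Lean-HFS and Lean-LF offspring, 3 libraries each, named by dam and then by weaning diet. The dam's diet and its GDM cannot be told apart in this design, and neither the litter nor the sex of an animal is given, so the p-values rest on the spread among the 12 libraries alone.

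Pancreatic ducts carry digestive enzymes from the acini to the gut and add a bicarbonate-rich fluid to them. Duct cells secrete chloride and bicarbonate through the channel Cftr, use carbonic anhydrase to make the bicarbonate, and build their cytoskeleton from the simple-epithelial keratins Krt7, Krt8, Krt18 and Krt19. Sox9 is the transcription factor that marks pancreatic progenitors in the embryo and duct cells in the adult. The genes differ in how specific they are: Krt8, Krt18 and Epcam are also made by acinar and endocrine cells, Spp1 by macrophages and Car2 by erythrocytes. Islets are isolated by digesting the pancreas with collagenase delivered through the bile duct, and pieces of duct and exocrine tissue can remain with them. In such bulk samples, fewer cells of a type and less RNA per cell cannot be told apart.

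The promoters shown are those of the 3 genes with the highest levels in the set, whose levels also moved together over the libraries. RefSeq promoters (build GRCr8) were given for 5 of the 9 genes (Krt8, Krt18, Spp1, Cftr and Epcam). Each line gives the 175 bases that lie 250 to 76 bases before the annotated start, on the strand of the gene, and the capitals mark matches to the motifs searched.
Krt8 promoter, chr7:135010415-135010589, strand -: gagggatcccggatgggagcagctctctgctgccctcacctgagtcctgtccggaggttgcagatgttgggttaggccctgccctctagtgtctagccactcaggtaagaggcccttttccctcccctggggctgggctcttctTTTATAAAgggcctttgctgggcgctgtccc
Krt18 promoter, chr7:135035918-135036092, strand +: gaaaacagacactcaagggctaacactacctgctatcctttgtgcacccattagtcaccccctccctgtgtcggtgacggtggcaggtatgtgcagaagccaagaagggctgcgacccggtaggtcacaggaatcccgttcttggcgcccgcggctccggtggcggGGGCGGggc
Epcam promoter, chr6:12649754-12649928, strand -: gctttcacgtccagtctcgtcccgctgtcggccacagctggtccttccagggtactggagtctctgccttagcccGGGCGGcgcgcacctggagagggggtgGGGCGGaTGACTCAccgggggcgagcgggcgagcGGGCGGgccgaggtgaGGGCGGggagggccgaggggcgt
The motifs, searched on both strands over the 250 bases before the start, were the TATA box (TATAAA), the GC box (GGGCGG), the CCAAT box (CCAAT) and the AP-1 motif (TGACTCA). The Krt8 promoter held TATAAA on its own strand 104 to 99 bases before the start, and on the other strand an overlapping match 106 to 101 bases before it. The Krt18 promoter held 1 GGGCGG, 84 to 79 bases before the start, and no TATAAA. The Epcam promoter held 4 GGGCGG matches and 1 TGACTCA, which lay 141 to 135 bases before the start. Of all 33469 rat promoters in the same window, 12.9% held TATAAA, 30.5% GGGCGG, 34.0% CCAAT and 4.05% TGACTCA. No CCAAT was found in the 5 promoters. GC made up 75.6% of the Epcam window, 60% of the Krt8 window and 62% of the Krt18 window, against a mean of 52.2% over all promoters. These matches describe the letters of the windows only.

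Values are reads scaled to a common depth, which compare 1 gene between libraries; before that scaling a deposited value of 1 stood for 1.96 to 5.02 reads. The 12 libraries held 11469290 to 27492858 reads over genes. Ribosomal RNA took 1.84% to 8.55% of these reads in libraries from offspring of GDM dams and 1.84% to 39.0% in those of lean dams. On HFS diet these shares did not overlap, at 1.84% to 4.34% in GDM-HFS islets and 24.7% to 39.0% in Lean-HFS islets. Lean-LF islets held 11.3%, 30.4% and 1.84%. The part of the ribosomal share in the differences between groups, above all between GDM-HFS and Lean-HFS islets, was not tested. The summed scaled value of the beta cell genes (Ins1, Ins2, Iapp, Slc2a2, Nkx6-1, Pdx1 and Ucn3) was 1238730 to 2255350 over the libraries. Most of that sum came from Ins1 and Ins2: group means ran from 892239 to 1265920 for Ins1 and from 176 to 283 for Ucn3. The titles also carry a letter whose meaning is not stated; K marks GDM-HFS 3 and the first and second GDM-LF libraries, and G marks the other 9, so the letter is not balanced over the dams. GDM-LF 2 stood apart in acinar genes: the summed scaled value of 17 acinar markers was 677613 there, against 27920 to 232096 in the other 11 libraries.

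Per kilobase of exon, the set spanned more than 3 orders of magnitude. In GDM-LF islets the mean level per kilobase was 3455 for Krt8, 1764 for Krt18, 1670.4 for Epcam, 566 for Spp1, 200.3 for Krt19, 54.5 for Car2, 6.65 for Sox9 and 2.79 for Cftr. In Lean-LF islets the order was the same, at 1909.9, 1094, 775, 157, 68.1, 30.6, 2.69 and 0.227 per kilobase. GDM-HFS and Lean-HFS islets gave the same order again. Krt18 and Epcam, neighbours in it, did not differ beyond their spread in GDM-LF islets (SD 972 and 835, n = 3). Krt8, Krt18 and Epcam, which endocrine and acinar cells also make, were the most abundant, and Sox9 and Cftr the least. Sox9 rested on 6 to 130 reads per library and Cftr on 1 to 86 reads.

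**Figure D1:**
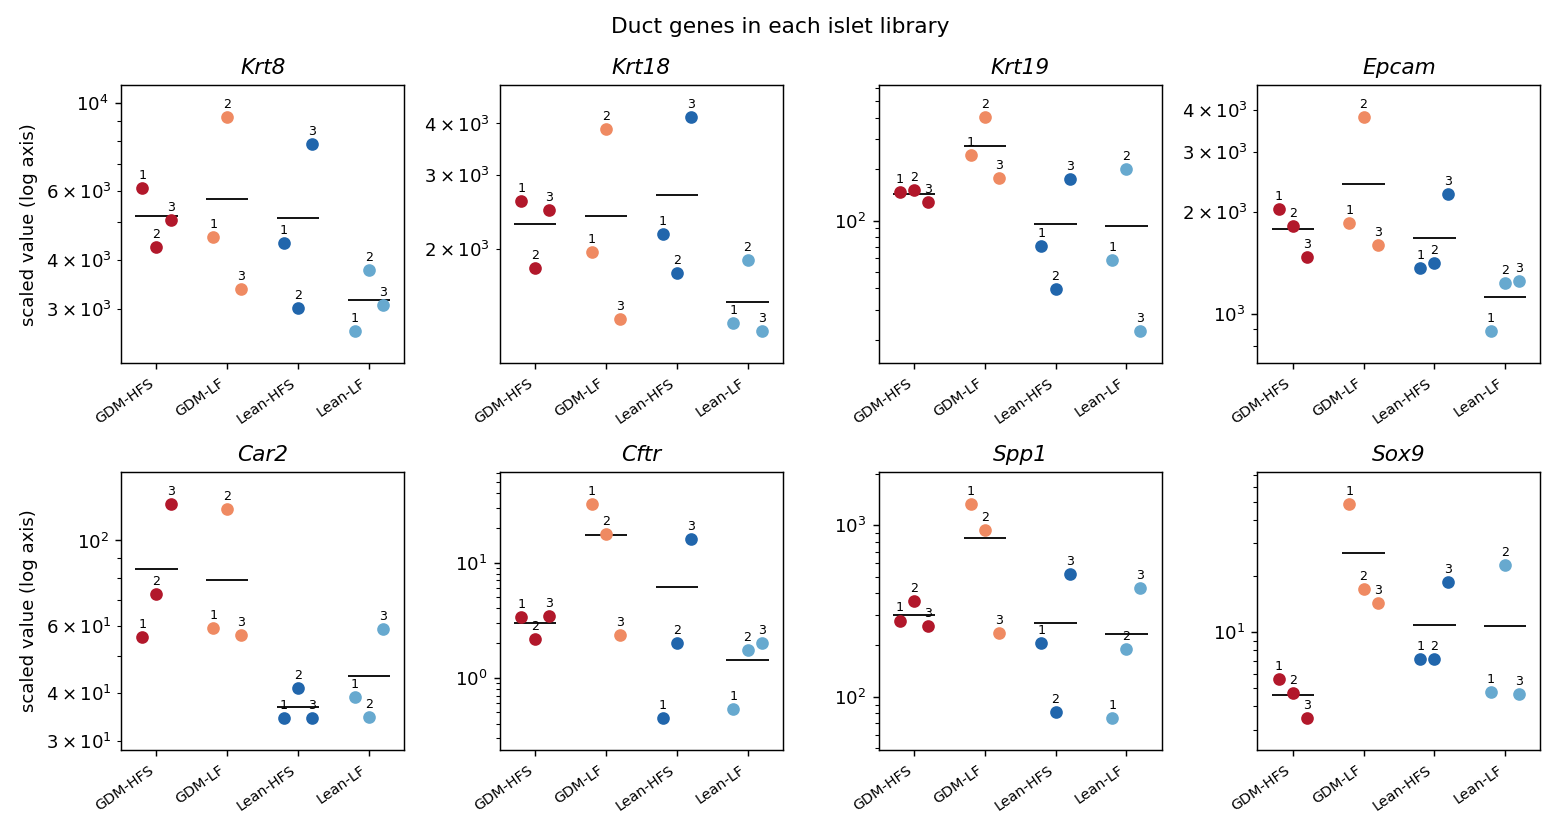
Scaled value (log axis) of each duct gene in each of the 12 libraries, with the library number beside each point and a bar at the group mean. GDM-LF 2 is the highest library for Krt8, Krt19 and Epcam, GDM-LF 1 for Cftr, Spp1 and Sox9, Lean-HFS 3 for Krt18 and GDM-HFS 3 for Car2.

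Of the 8 genes, Car2 rose in islets from offspring of GDM dams when both weaning diets were averaged, by 1.91-fold, and the other 7 did not pass the test. All 8 were higher in sign, with log2 differences of 0.20 to 1.41, the largest for the duct keratin Krt19. Over all genes tested in this comparison 11.6% passed the threshold in either direction, and 6.13% passed it as higher, so 1 of 8 is close to the share found among all genes. For 0 of the 8 did all 6 libraries from offspring of GDM dams lie above all 6 of lean dams, as they did for 2.8% of all genes. The median log2 difference was 0.75 for the duct genes and 0.03 for all genes tested. The test was limma on log2(scaled value + 1), with Benjamini-Hochberg adjusted p-values over all 12339 genes and a threshold of 0.05.

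Krt8 and Krt18 are the paired type II and type I keratins that assemble into one filament in simple epithelia. In the files' build (rn5), Krt8 lies at chr7:141393004-141400457 on the minus strand and Krt18 at chr7:141425684-141429360 on the plus strand, so that the genes point away from each other, with starts 25227 bases apart. Krt8 had scaled values of 6107, 4324 and 5055 in GDM-HFS islets, 4569, 9218 and 3378 in GDM-LF islets, 4429, 3025 and 7888 in Lean-HFS islets and 2640.4, 3772 and 3076 in Lean-LF islets. The high values were those of GDM-LF 2 and Lean-HFS 3, and the groups overlapped. Averaged over weaning diets, Krt8 differed by 0.43 ± 0.27 (log2, SE; adjusted p = 0.299) between offspring of GDM and lean dams.

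Krt18 had scaled values of 2600.4, 1798 and 2480.3 in GDM-HFS islets, 1962, 3883 and 1351 in GDM-LF islets, 2164, 1742 and 4145 in Lean-HFS islets and 1327, 1872 and 1264 in Lean-LF islets. The same GDM-LF 2 and Lean-HFS 3 libraries were high, and the groups overlapped. The averaged difference was 0.21 ± 0.26 (adjusted p = 0.609), and it was negative with the acinar level as a covariate (-0.13) or without the K libraries (-0.16). Over the 12 libraries the log2 levels of Krt8 and Krt18 correlated with r = 0.954, the closest pair in the set; the libraries share depth and cell make-up, so this is a description. Per kilobase, Krt8 over Krt18 was 1.86 ± 0.16 in GDM-HFS islets, 1.97 ± 0.07 in GDM-LF islets, 1.56 ± 0.13 in Lean-HFS islets and 1.76 ± 0.20 in Lean-LF islets (SD, n = 3 each), within 1.43 to 2.05 in all libraries.

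Krt19, the small type I keratin used as a duct marker in adult pancreas, lies at chr10:87848518-87853235 on the minus strand. Its scaled values were 148, 151 and 128 in GDM-HFS islets, 243, 404 and 178 in GDM-LF islets, 70.8, 39.8 and 175 in Lean-HFS islets and 58.6, 199 and 22.4 in Lean-LF islets. The GDM-HFS libraries lay close together, while Lean-HFS 3 and Lean-LF 2 stood well above the other lean libraries and among the offspring of GDM dams. The averaged difference was 1.41 ± 0.45 (2.66-fold; adjusted p = 0.0587), so Krt19 did not pass the test. It passed without GDM-LF 3 (adjusted p = 0.0424), without Lean-HFS 3 (0.0366) and without Lean-LF 2 (0.0456). These were the lowest GDM-LF library and the highest library of each lean group. Over all fits that left out 1 library, the difference ran from 1.04 to 1.82 (limma adjusted p 0.0366 to 0.136). As a share of Krt18 per kilobase, Krt19 was 6.35% ± 1.71 in GDM-HFS islets, 11.9% ± 1.40 in GDM-LF islets, 3.23% ± 0.96 in Lean-HFS islets and 5.56% ± 4.51 in Lean-LF islets (SD, n = 3 each). The GDM-LF share, 10.3% to 13.0%, overlapped that of Lean-LF islets only in Lean-LF 2 (10.5%). Keratin genes have processed pseudogenes in mammalian genomes, and the treatment of reads that match more than 1 place is not stated in the notes used here, so the keratin levels are uncertain to that extent.

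Epcam encodes a cell adhesion molecule of epithelia and lies at chr6:21264116-21280078 on the minus strand. Epcam had scaled values of 2038, 1816 and 1469 in GDM-HFS islets, 1858, 3809 and 1595 in GDM-LF islets, 1362, 1410.2 and 2250.2 in Lean-HFS islets and 886, 1233 and 1247 in Lean-LF islets. On LF diet the groups did not overlap, with every GDM-LF library above every Lean-LF library; on HFS diet they overlapped. Averaged over diets the difference was 0.56 ± 0.21 (adjusted p = 0.0968), and DESeq2 on the whole reads called it (0.60, adjusted p = 0.0402). Epcam moved with Krt8 over the libraries (r = 0.888) more closely than with any other gene of the set.

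Car2, carbonic anhydrase 2, supplies bicarbonate in duct cells. It lies at chr2:107871656-107886782 on the minus strand. Its scaled values were 55.9, 72.5 and 125 in GDM-HFS islets, 59.1, 121 and 56.8 in GDM-LF islets, 34.5, 41.4 and 34.6 in Lean-HFS islets and 39.1, 34.8 and 59.0 in Lean-LF islets. Only Lean-LF 3 reached the range of the offspring of GDM dams, and GDM-HFS 3 and GDM-LF 2, both K libraries, were the highest. Over both diets Car2 averaged 81.6 ± 32.4 in offspring of GDM dams and 40.6 ± 9.5 in offspring of lean dams (SD, n = 6 each), a difference of 0.93 ± 0.24 (adjusted p = 0.0297). edgeR and DESeq2 on the whole reads also called it (adjusted p = 0.0289 and 0.00253). The call ended in 7 of the 12 fits that left out 1 library: GDM-HFS 2, GDM-HFS 3, GDM-LF 2, Lean-HFS 1, Lean-HFS 3, Lean-LF 1 or Lean-LF 2 (log2 0.76 to 0.97, adjusted p 0.0513 to 0.0865). Without the K libraries Car2 differed by 0.58 (adjusted p = 0.241), and with the acinar level as a covariate by 0.76 (adjusted p = 0.0716).

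Red blood cells also make Car2, and their markers were measured beside it. Of 5 erythrocyte markers 4 were tested, all higher in sign. Of these, 1 rose in offspring of GDM dams, against 6.13% called higher over all genes. It was the globin gene Hba-a1 (1.70 ± 0.51, adjusted p = 0.0490, close to the threshold), while Hbb, Alas2 and Slc4a1 did not pass. Slc4a1 averaged 3.06 ± 4.66 (SD) in GDM-LF islets and 0.514, 1.35 and 0.455 in GDM-HFS, Lean-HFS and Lean-LF islets. It passed the filter on low values through GDM-LF, so its sign is not separate support. The summed erythrocyte level was 470 to 794 in GDM-HFS islets, 209 to 5067 in GDM-LF islets, 61.8 to 597 in Lean-HFS islets and 99.0 to 708 in Lean-LF islets. Car1, the carbonic anhydrase typical of red cells, was at 0 in 11 of the 12 libraries, Slc4a1 in 4 and Hba-a1 in 1. The part of red cells in the Car2 difference was not tested.

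Cftr, the chloride and bicarbonate channel of the duct cell's apical membrane, lies at chr4:42281456-42448568 on the plus strand. Cftr had scaled values of 3.37, 2.15 and 3.46 in GDM-HFS islets, 32.4, 17.7 and 2.33 in GDM-LF islets, 0.448, 1.99 and 15.9 in Lean-HFS islets and 0.532, 1.74 and 1.99 in Lean-LF islets. In reads these were 15, 10 and 6 in GDM-HFS islets, 86, 63 and 8 in GDM-LF islets, 1, 5 and 35 in Lean-HFS islets and 2, 4 and 12 in Lean-LF islets. GDM-LF 1, GDM-LF 2 and Lean-HFS 3 were high and the other 9 libraries low. The averaged difference was 1.19 ± 0.62 (adjusted p = 0.213).

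Spp1 encodes osteopontin, a secreted phosphoprotein of duct cells and of macrophages, and lies at chr14:6653086-6658937 on the minus strand. Its scaled values were 278, 359 and 257 in GDM-HFS islets, 1332, 943 and 234 in GDM-LF islets, 206, 81.6 and 520.4 in Lean-HFS islets and 75.1, 190.5 and 429 in Lean-LF islets. GDM-LF 1 and GDM-LF 2 were high, and the groups overlapped. The averaged difference was 1.18 ± 0.51 (adjusted p = 0.137). Spp1 and Cftr moved together over the libraries (r = 0.840). The summed level of 8 macrophage markers was 35.8 to 447 in GDM-HFS islets, 54.2 to 430.0 in GDM-LF islets, 147 to 395 in Lean-HFS islets and 190.1 to 404 in Lean-LF islets. GDM-LF 1, the library highest in Spp1, had the 54.2, with Cd163 at 0. GDM-LF 2, Lean-HFS 3 and Lean-LF 3 came next in Spp1. They had the highest macrophage levels of their groups, at 430.0, 395 and 404. None of the 8 macrophage markers passed the test between dams, where 11.6% of all genes did. The part of macrophages in the Spp1 values was not tested. Stellate and fibroblast markers were far higher in GDM-LF 1 than elsewhere, with a summed level of 7498. Their summed level was 465 to 537 in GDM-HFS islets and 651 to 7498 in GDM-LF islets. It was 245 to 1300.4 in Lean-HFS islets and 539 to 1169 in Lean-LF islets. Their part in the Spp1, Cftr and Sox9 values of GDM-LF 1 was not tested.

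Sox9 lies at chr10:100964824-100970579 on the plus strand. Sox9 had scaled values of 5.62, 4.73 and 3.46 in GDM-HFS islets, 48.9, 17.1 and 14.3 in GDM-LF islets, 7.17, 7.16 and 18.7 in Lean-HFS islets and 4.79, 23.0 and 4.65 in Lean-LF islets. The GDM-HFS libraries were uniformly low and all 3 lay below all GDM-LF and all Lean-HFS libraries. Averaged over diets the difference was 0.20 ± 0.43 (adjusted p = 0.786), and its sign depended on GDM-LF 1 (-0.068 without that library).

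**Figure D2:**
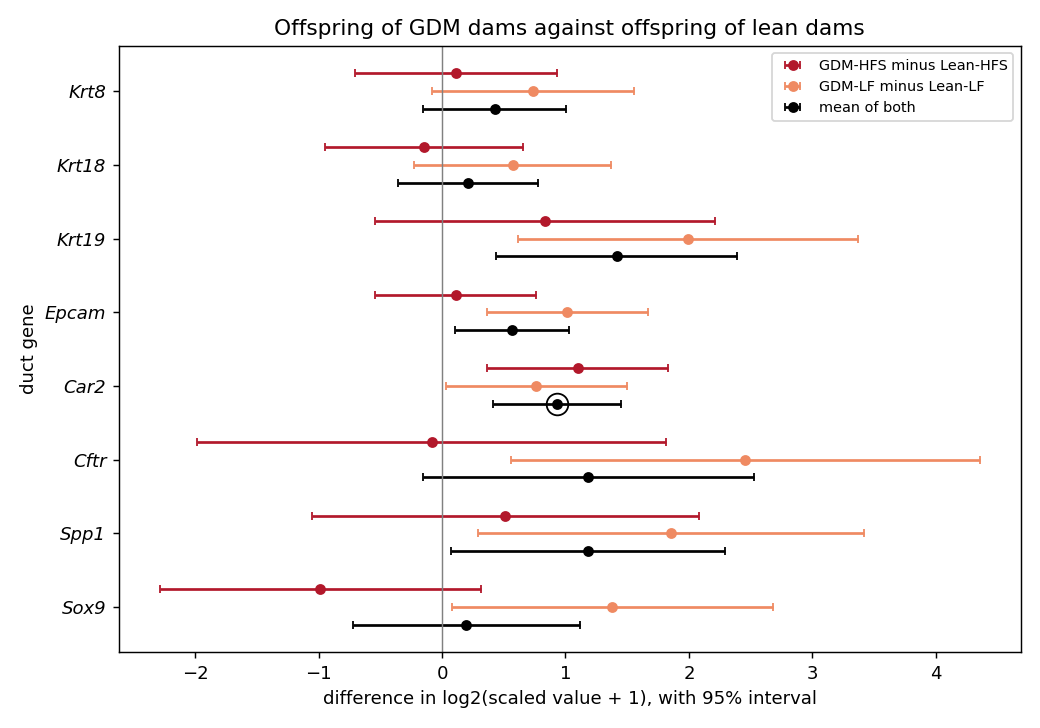
Difference in log2(scaled value + 1) between offspring of GDM dams and offspring of lean dams for each duct gene, with 95% intervals from limma, on HFS diet, on LF diet and averaged. A ring marks the 1 difference that passed the threshold, Car2 averaged over diets (0.93); Sox9 is negative on HFS diet (-0.99) and positive on LF diet (1.38).

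On LF diet alone, GDM-LF against Lean-LF islets, all 8 genes were higher in sign, with a median log2 difference of 1.20 (0.05 over all genes tested), and 0 of 8 passed the test, where 1.58% of all genes did. The differences were 2.46 ± 0.88 for Cftr (adjusted p = 0.106), 1.99 ± 0.64 for Krt19 (0.0802) and 1.85 ± 0.73 for Spp1 (0.129). Sox9 differed by 1.38 ± 0.60 (adjusted p = 0.165) and Epcam by 1.02 ± 0.30 (0.0700), while Car2, Krt8 and Krt18 differed by 0.76, 0.74 and 0.57. For Cftr and Epcam the GDM-LF libraries all lay above the Lean-LF libraries, 2 of 8 genes, where 12.9% of all genes did so. GDM-LF 3 was the lowest GDM-LF library for each of the 8 genes. Without it 3 genes passed, Cftr (3.42, adjusted p = 0.0199), Epcam (1.26, 0.0232) and Spp1 (2.61, 0.0288), and over both diets 4 passed, Car2, Epcam, Krt19 and Spp1. Leaving out the lowest GDM-LF library raises these differences by construction. The share of all genes that passed without GDM-LF 3 is not given here, so these counts are not shown to be particular to the duct genes. Over all fits that left out 1 library, the limma adjusted p on LF diet reached 0.336 for Cftr, 0.282 for Epcam and 0.442 for Spp1. DESeq2 on the whole reads called Cftr and Epcam on LF diet with all libraries (adjusted p = 0.00949 and 0.00925). DESeq2 called far more genes there than limma did, 1688 of all genes, and edgeR called no gene there.

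On HFS diet alone, GDM-HFS against Lean-HFS islets, 5 of the 8 genes were higher and 3 lower in sign, with a median log2 difference of 0.11 (-0.01 over all genes). None of the 8 passed, where 0.0081% of all genes, or 1 gene, did. Car2 had the highest difference of the 8 here, at 1.10 ± 0.34 (adjusted p = 0.202), and its GDM-HFS libraries all lay above the Lean-HFS libraries, as they did for 12.7% of all genes. Sox9 was the lowest, at -0.99 ± 0.60 (adjusted p = 0.490), and its GDM-HFS libraries all lay below the Lean-HFS libraries, as for 12.1% of all genes. Krt19 differed by 0.83, Spp1 by 0.51, Krt8 by 0.11, Epcam by 0.11, Cftr by -0.09 and Krt18 by -0.14 (adjusted p 0.583 to 0.976).

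The weaning diet changed none of the 8 genes at the threshold, whether averaged over dams, in offspring of lean dams or in offspring of GDM dams. No gene of the 12339 passed in any of these comparisons with limma, a background of 0%, although 611, 269 and 1188 genes had an unadjusted p under 0.05. edgeR called 0 genes in each, and DESeq2 called 2, 1 and 33. Averaged over dams, the log2 differences between HFS and LF diet ran from -0.94 ± 0.43 for Sox9 (adjusted p = 0.883) to 0.41 for Krt18. In offspring of lean dams 7 of the 8 genes were higher in sign on HFS diet (-0.23 for Car2 to 0.85 for Cftr). There Epcam differed by 0.55 ± 0.30 (adjusted p = 1), its Lean-HFS libraries all above the Lean-LF libraries, as for 3.68% of all genes. In offspring of GDM dams 6 of the 8 were lower in sign on HFS diet. There Sox9 differed by -2.12 ± 0.60 (unadjusted p = 0.00371, adjusted p = 0.470) and Krt19 by -0.87 ± 0.64 (adjusted p = 0.654). For both of these genes the GDM-HFS libraries all lay below the GDM-LF libraries, as for 6.61% of all genes.

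Whether the dam's effect differed between weaning diets was tested as an interaction, GDM on HFS diet minus GDM on LF diet. None of the 8 genes passed, and no gene tested did with limma (12339 genes), edgeR or DESeq2. With limma 730 genes had an unadjusted p under 0.05. In sign 7 of the 8 were negative, with a median of -1.03 (-0.01 over all genes): -2.54 ± 1.25 for Cftr (adjusted p = 0.784), -2.36 ± 0.85 for Sox9 (0.784), -1.34 for Spp1, -1.16 for Krt19, -0.91 ± 0.43 for Epcam (0.784), -0.71 for Krt18 and -0.63 for Krt8. Car2 was the exception, at 0.33 ± 0.48 (adjusted p = 0.897). The duct genes are thus not shown to respond to GDM of the dam differently on the 2 weaning diets.

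**Figure D3:**
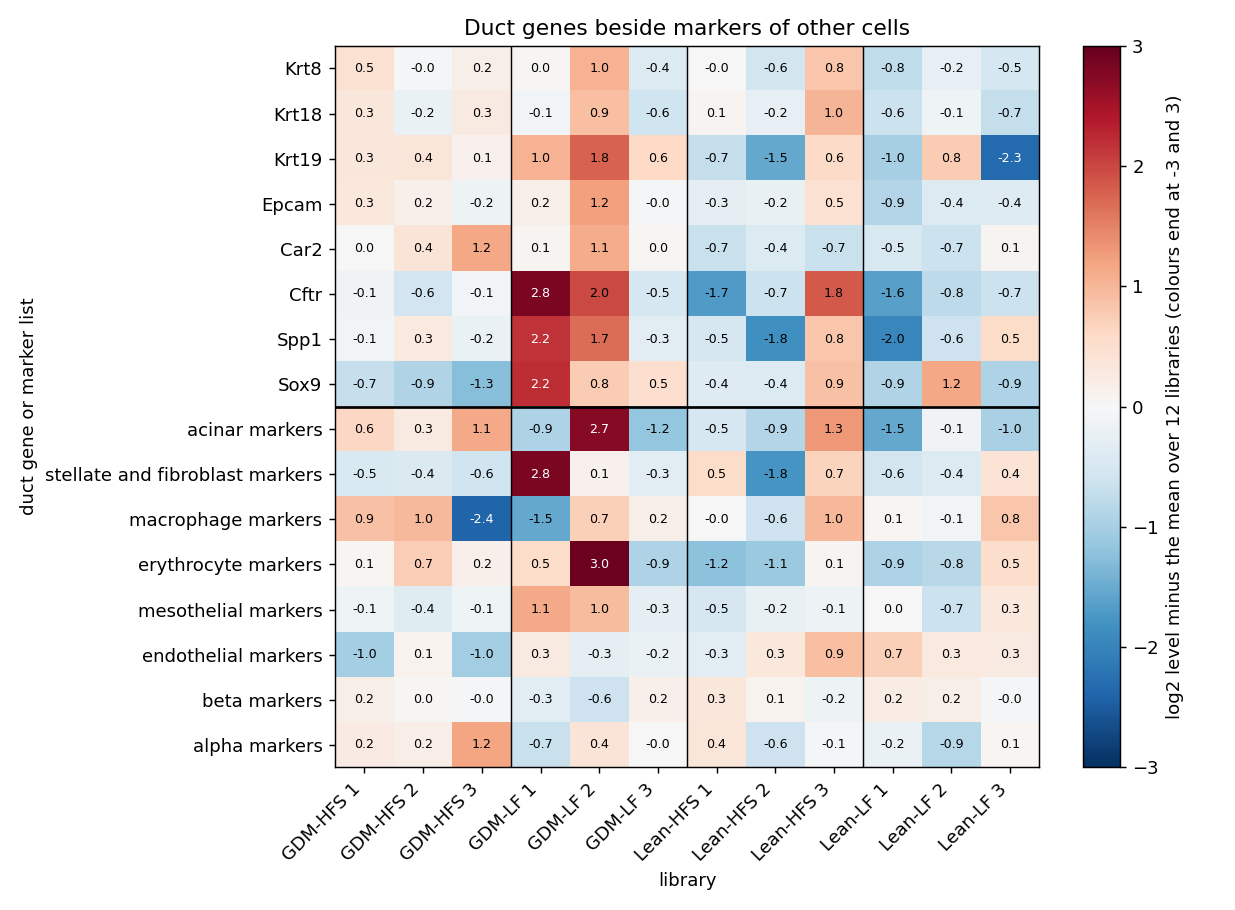
Log2 level of each duct gene (upper rows) and mean log2 level of each marker list (lower rows) in each library, as the difference from the mean over the 12 libraries, with red for higher and blue for lower. GDM-LF 2 is high in keratins, Epcam, acinar and erythrocyte markers, and GDM-LF 1 in Cftr, Sox9, Spp1 and stellate and fibroblast markers.

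The libraries high in duct genes also differed in markers of other cells. In the acinar list the summed level was 110313 to 217126 in GDM-HFS islets, 39316 to 677613 in GDM-LF islets, 42781 to 232096 in Lean-HFS islets and 27920 to 78632 in Lean-LF islets. GDM-LF 2 and Lean-HFS 3, the high libraries of Krt8, Krt18 and Epcam, were also the highest of their groups in acinar markers, at 677613 and 232096. GDM-LF 1, the highest in Cftr, Spp1 and Sox9, was at 46214. None of the 17 acinar markers was at 0 in any library. None passed the test between dams, where 11.6% of all genes did. In sign 15 of 17 were higher, against 52.7% of all genes. Mean log2 acinar levels were 11.6 ± 1.43 in offspring of GDM dams and 10.7 ± 0.97 in offspring of lean dams (SD, n = 6 each), a difference of 0.89 (two-sided exact permutation p = 0.238, 0.338 adjusted over 8 marker lists). With the acinar level as a covariate no duct gene passed. Without GDM-LF 2 and Lean-HFS 3, a choice made after the data were seen, none passed either, and Car2 then differed by 0.74 (adjusted p = 0.0864).

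Of the other lists, none passed after adjustment. The endothelial list differed by -0.72 between offspring of GDM and lean dams (exact permutation p = 0.0325, adjusted 0.251), and Eng and Kdr of the 5 fell (-0.75 and -0.87, adjusted p = 0.0415 and 0.0462). The erythrocyte list differed by 1.17 (exact permutation p = 0.0628, adjusted 0.251). The beta cell list differed by -0.21, alpha by 0.44, macrophage by -0.39, mesothelial by 0.39 and stellate and fibroblast by 0.37 (adjusted exact permutation p 0.338 to 0.634). Of the 7 beta cell markers Nkx6-1, a beta cell transcription factor, fell (-0.87 ± 0.26, adjusted p = 0.0480) and the other 6 did not pass. Over all genes 11.6% passed in either direction in this comparison. The calls of Eng, Kdr and Nkx6-1 lay close to the threshold of 0.05, and how far they depend on single libraries is not given here. Mesothelial cells also make keratins, and 3 of 5 mesothelial markers had a row. Of these Upk1b was at 0 in 6 libraries and Wt1 in 4. Upk1b (1.21) passed the filter on low values through GDM-LF, so its sign is not separate support. Msln, by far the most abundant of the 3, was lower in sign (-0.33). The higher mean of the mesothelial list thus came from genes of low level.

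A wider list of 27 duct genes held 26 with a row and 24 that were tested. Averaged over weaning diets, 1 rose and 1 fell in offspring of GDM dams, and 22 did not pass, against 11.6% called over all genes; 16 of the 24 were higher in sign, with a median of 0.38. Perp, a desmosome-associated membrane protein, rose by 0.80 ± 0.24 (adjusted p = 0.0480). Its scaled values were 162, 133 and 174 in GDM-HFS islets, 122, 274 and 108 in GDM-LF islets, 85.1, 106 and 163 in Lean-HFS islets and 50.3, 89.6 and 71.1 in Lean-LF islets. The lean libraries overlapped the GDM range through Lean-HFS 3. Bicc1, an RNA-binding protein needed for normal ducts and renal tubules in mice, fell, with a log2 difference of -0.57 ± 0.17 (adjusted p = 0.0452). Its scaled values were 74.6, 55.9 and 85.4 in GDM-HFS islets, 83.6, 63.2 and 83.3 in GDM-LF islets, 113, 89.6 and 123 in Lean-HFS islets and 118, 137 and 83.6 in Lean-LF islets. Lean-LF 3 lay at the level of the offspring of GDM dams. The call of Perp ended in 8 of the 12 fits that left out 1 library and that of Bicc1 in 9, with adjusted p-values of up to 0.134 and 0.121. Each also ended in 8 of the 13 other settings tried, with adjusted p-values of up to 0.316 for Perp and 0.231 for Bicc1 without the K libraries.

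Among the genes of that list with the next lowest adjusted p, Mmp7, Sctr, Lcn2 and Onecut1 did not pass. Mmp7, a matrix metalloprotease of duct-like epithelium, had 5, 2 and 8 reads in GDM-HFS islets, 182, 279 and 12 in GDM-LF islets, 0, 0 and 6 in Lean-HFS islets and 0, 0 and 32 in Lean-LF islets. It was high in GDM-LF 1 and GDM-LF 2 alone, and differed by 2.35 ± 0.75 on average (adjusted p = 0.0577). The secretin receptor Sctr differed by 1.33 ± 0.45 (adjusted p = 0.0693) and lipocalin Lcn2 by 1.15 ± 0.40 (0.0766). Sctr and Lcn2 differed by 2.21 and 2.04 on LF diet and by 0.46 and 0.26 on HFS diet. Onecut1, a transcription factor of the developing duct, differed by 1.38 ± 0.60 (adjusted p = 0.135). It had 9, 15 and 5 reads in GDM-HFS islets and 25, 65 and 2 in GDM-LF islets. Lean-HFS islets had 9, 0 and 0 Onecut1 reads and Lean-LF islets 5, 5 and 2. On LF diet 19 of the 24 were higher in sign (median 1.01) and on HFS diet 10 (median -0.07), with 0 passing on either; in the interaction 22 of 24 were negative (median -0.74) and 0 passed.

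**Figure D4:**
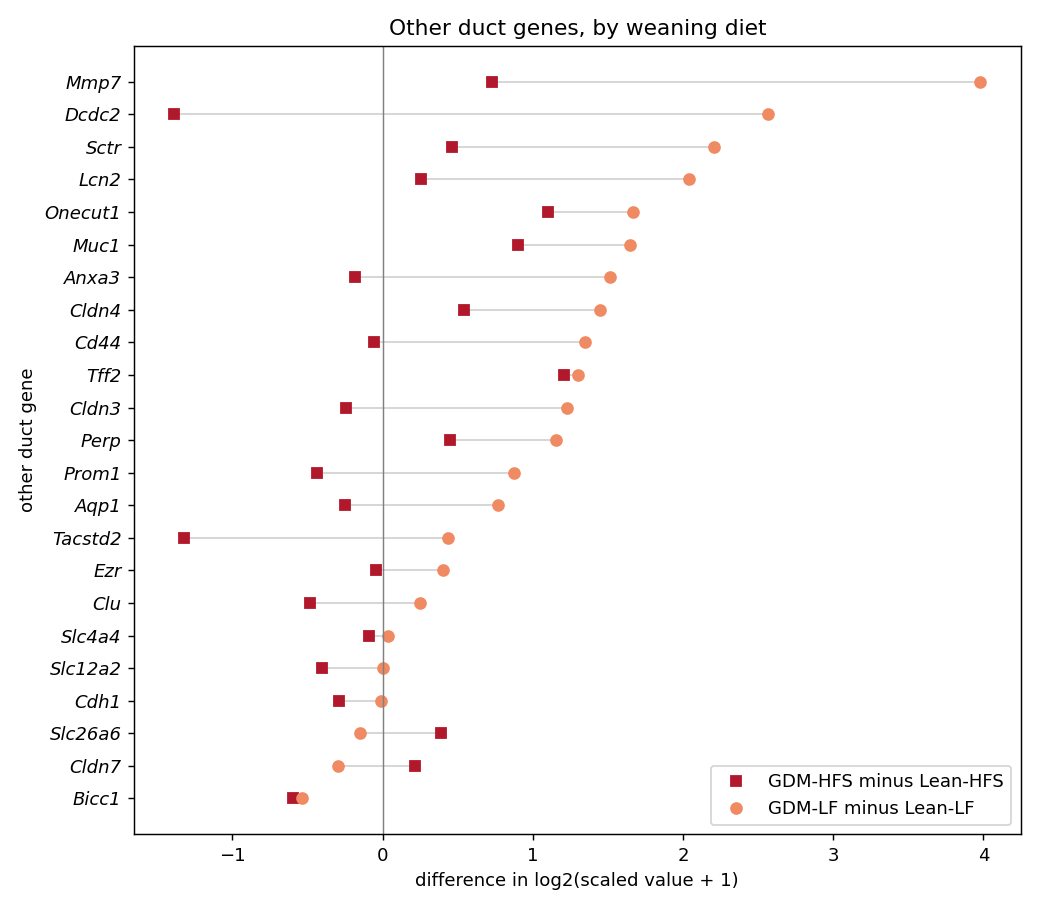
Difference in log2(scaled value + 1) between offspring of GDM and lean dams for other duct genes tested, on HFS diet (squares) and on LF diet (circles), joined by a line. Mmp7 has the largest difference on LF diet (3.98) and 0.73 on HFS diet; none passed the threshold on either diet alone.

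Over the 12 libraries, the tested genes outside the set whose log2 levels were most like a duct gene were named by Pearson's r, as a description of libraries that share depth and cell make-up. For Krt18 these were Hspb1 (r = 0.985), a small heat shock protein, and Cldn3 (0.969), a tight junction protein on the wider duct list. For Krt8 the closest was Serpinb1a (0.969), for Epcam LOC501110 (0.974), for Spp1 Rapsn (0.973) and for Car2 Mapkap1 (0.965). For Cftr the closest was Trim47 (0.953), and Jag1, a Notch ligand, was also among its closest 3 (0.934). For Sox9 it was Fcho2 (0.940) and for Krt19 Hspbap1 (0.880), the loosest of these matches. Within the set, Car2 stood apart from Sox9 (r = -0.176), the lowest of the 28 pairs.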

How the data were processed

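Islet RNA was depleted of ribosomal RNA and made into strand-specific libraries (NEBNext Ultra II Directional), per the labels' protocols. The submitters' processing notes name STAR 2.5.1b, HOMER 4.9 and DESeq2. Per the file headers, exon reads were summed per gene on rn5, on both strands, so overlapping or antisense genes cannot be told apart. The deposited values are a depth-scaled signal: the authors' header names FPKM, but the values are whole multiples of 1 step per library for short and long genes alike, so they were not divided by length. Division by the step returned whole reads (within 0.1 read) for 100% of the values up to 1000 reads, at 1.96 to 5.02 reads per unit. The design had assumed length-scaled values, and its log-scale test was kept.

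Each library was divided by a median-of-ratios factor (0.827 to 1.27) from the 11337 genes above 0 in all libraries. limma 3.58.1 (R 4.3.3, empirical Bayes with a mean-variance trend, 1 mean per group) was fitted to log2(scaled value + 1) for genes averaging at least 1 in scaled value. The 7 contrasts were adjusted separately (Benjamini-Hochberg, threshold 0.05). This scale understates changes of low genes such as Cftr. edgeR 4.0.16 and DESeq2 1.42.0 were run on the recovered whole reads of the same genes without the ribosomal RNA rows. For GDM averaged, on LF and on HFS diet, edgeR called 1487, 0 and 1 genes and DESeq2 2284, 1688 and 268. The fit was also run on simulated counts, set to a smaller spread between libraries than the duct genes showed in many groups. That run therefore does not show how well the fit finds changes in these genes. Marker lists were compared between dams by exact permutation tests (scipy 1.17.1). Promoters came from RefSeq (GRCr8) and were matched by symbol.

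The members and lists were chosen with earlier results of these data known. Named were all members, other duct genes past the threshold and up to 5 more by adjusted p (a gene the rule takes is not reported here), and the 3 genes most like each member, of which the closest are printed.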

Additional observations from a re-analysis of the deposited data

How the results depend on the processing

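Averaged over weaning diets, the number of duct genes called between dams was 1 (Car2). It was 0 with no mean-variance trend, with the length trend removed, with the acinar level as a covariate, without the K libraries and without GDM-LF 2 and Lean-HFS 3 (added after the data were seen), and 2 with DESeq2 (Car2 and Epcam). It was 0 to 4 when 1 library was left out. On LF diet the number of duct genes called was 0, 2 with DESeq2 and 0 to 3 when 1 library was left out. Of all genes, DESeq2 called 2284 averaged over diets and 1688 on LF diet. The shares of all genes called with 1 library left out are not given here. In the other 5 contrasts it was 0 under every alternative run. Signs turned only for differences that had not passed. Averaged over diets, Krt18 was -0.13 with the acinar covariate and -0.16 without the K libraries, and Sox9 -0.052 without the K libraries and -0.068 to 0.54 when 1 library was left out. On LF diet Krt18 was -0.12 without the K libraries. On HFS diet Krt8 was -0.15 with the acinar covariate and -0.026 with edgeR, Krt18 0.077 on the deposited scale, Cftr 0.025 on that scale, 0.022 with a pseudocount of 0.5 and 0.17 with the length trend removed, and Epcam -0.014 with the length trend removed and -0.10 with the acinar covariate. Without GDM-LF 2 and Lean-HFS 3, Krt18 was 0.22 and Cftr 0.92 on HFS diet, and the interaction was 0.15 for Krt8 and 0.068 for Krt18. Without the K libraries the interaction was 0.0096 for Krt8 and 0.27 for Spp1. When 1 library was left out on HFS diet, Krt8 ran from -0.21 to 0.48, Krt18 from -0.40 to 0.22, Spp1 from -0.15 to 1.18, Cftr from -0.85 to 0.92 and Epcam from -0.019 to 0.34. The cause was not tested. The replicate numbers are not shown to pair the libraries (5 of 18 same-numbered pairs correlated above 0.1). With 3 libraries per group these correlations cannot exclude a shared litter or batch. With the replicate block the averaged count of duct genes called stayed at 1, while the calls of Perp and Bicc1 ended (limma adjusted p = 0.0509 and 0.0598). Depth limits Cftr and Sox9 most, with as few as 1 and 6 reads in a library.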
